A study of Mus musculus with 4 samples.

Results

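The endothelin system was followed through the single-cell transcriptome of the mouse ovary: the ligand genes Edn1, Edn2 and Edn3, the converting enzyme gene Ece1 and the receptor genes Ednra and Ednrb. These 6 genes were taken by symbol from the 32285 genes counted, and each symbol matched 1 row of the count matrices. The series asks, by its title, how anti-Müllerian hormone (AMH) bears on the ovary's response to doxorubicin, an anthracycline that damages DNA. It holds 4 droplet libraries (10x Genomics 3′ chemistry), 1 per treatment, each made from 5 ovaries, 1 from each of 5 mice. The control mice had PBS or saline. The doxorubicin mice had 3 mg/kg doxorubicin in each of 2 weekly doses from postnatal day 25, before puberty, and the third group had the same 3 mg/kg with recombinant human AMH at 0.75 mg/kg. The last group had AMH at 0.75 mg/kg alone. Ovaries were taken 4 h after the last doxorubicin dose and dissociated with papain and collagenase A. Day 25 was thus the day of the first dose and not the age at collection. The strain, and the timing of AMH against doxorubicin, were not given in the sources used here.

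The labels give 1 library per treatment and the animals of a library cannot be told apart, so no difference has a replicate check and no test or p-value is given. Intervals are exact 95% intervals and cover counting error only. Where 4 values stand in a row they belong to the control library first, then to doxorubicin, then to doxorubicin+AMH, and last to AMH alone.

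Endothelins are small vasoactive peptides. Each is cut from a longer precursor, first by a furin-type protease and then by a converting enzyme, of which Ece1 is the main one. Ednra binds endothelin 1 and 2 more tightly than endothelin 3 and is known for driving contraction of vascular smooth muscle through Gq and calcium. Ednrb binds all of them about equally, releases nitric oxide from endothelium, removes endothelin from the circulation, and can also contract some smooth muscle. In the ovary, endothelin 1 is known from vessels and follicles, and endothelin 2 is known for a brief burst in granulosa cells just before a follicle ruptures, when the smooth muscle of the follicle wall contracts. Edn3 is best known for its partnership with Ednrb in neural crest cells.

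The coding stretch of the mature ligand peptide is shown because it is what makes these ligands a family. In the GRCm38 gene models (GENCODE vM21) Edn1 lies at chr13:42301476-42307990 on the plus strand, Edn2 at chr4:120161206-120167360 on the plus strand and Edn3 at chr2:174760619-174784042 on the plus strand. In each gene the stretch holds 21 codons (63 bases) inside exon 2 of 5, so it is coding exonic sequence. It was found by the spacing of its 4 cysteine codons, which are in capitals. Coordinates are GRCm38, all on the plus strand. Edn3 has a second model with the same stretch, as codons 97 to 117 of 214.
Edn1, chr13:42303649-42303711, codons 53 to 73 of 202: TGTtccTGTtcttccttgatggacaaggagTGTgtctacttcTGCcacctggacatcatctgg
Edn2, chr4:120161951-120162013, codons 46 to 66 of 175: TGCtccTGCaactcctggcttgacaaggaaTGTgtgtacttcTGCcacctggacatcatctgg
Edn3, chr2:174761749-174761811, codons 53 to 73 of 166: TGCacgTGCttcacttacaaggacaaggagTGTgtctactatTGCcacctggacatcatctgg

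The last cysteine codon is followed by the same 18 bases in all 3 genes, cacctggacatcatctgg. Edn1 and Edn2 share 53 of 63 bases (84.1%), Edn1 and Edn3 share 50 (79.4%), and Edn2 and Edn3 share 48 (76.2%). Ece1 lies at chr4:137862237-137965229 on the plus strand, Ednra at chr8:77663031-77724464 on the minus strand and Ednrb at chr14:103814625-103844402 on the minus strand.

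The deposited matrices held 9202, 7141, 7818 and 9478 cell barcodes and 178279122, 143127593, 138647495 and 169170501 unique molecular identifiers (UMIs, 1 per captured transcript). After filtering, 7925, 6001, 6503 and 7840 cells were kept, 28269 in all, with a median of 13037, 15064, 12195 and 10580.5 UMIs per cell. Pairs of libraries shared 6 to 19 kept barcode sequences. The cells fell into 34 clusters, of which 29 were named from marker genes and grouped into 12 classes, called granulosa-like and so on because the names are rebuilt from markers; 5 clusters stayed unnamed. The 6 endothelin genes and the pathway genes were kept out of the clustering. Classes held granulosa-like (2064, 1727, 2176 and 2784 cells), stroma-like (3009, 2157, 2167 and 2186), smooth muscle-like (955, 555, 762 and 888) and theca-like cells (850, 595, 767 and 926), and smaller numbers of the rest. The unnamed clusters held 147, 479, 177 and 307 cells, so the doxorubicin library had the most of these. The oviduct-type class held 142, 1, 40 and 218 cells and gives no value for the doxorubicin library.

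Levels are given as CPM, the UMIs of a gene per 1000000 UMIs of the same cells. Over all kept cells, Ece1 had 47912 UMIs in 14747 cells (52.2% of cells), Ednra had 30181 in 11748 (41.6%), and Ednrb had 9801 in 2581 (9.13%). The ligands were found in fewer cells. Edn1 had 5487 UMIs in 1611 cells (5.70%), Edn3 had 2119 in 1571 (5.56%) and Edn2 had 615 in 332 (1.17%). Free RNA in a droplet can give a UMI in a cell that does not make the transcript, so classes that should lack these genes give the background. Among 227 erythroid-like cells (median 5167 UMIs) 1.76% had an Ednra UMI, 0.441% an Ednrb UMI, 0.441% an Edn3 UMI and 3.96% an Ece1 UMI. At 2000 UMIs per cell, where 43 shallower cells drop out, no erythroid-like cell had an Ednra UMI of 184, which allows up to 1.63%. No erythroid-like cell had an Edn1 or Edn2 UMI, which allows a share of up to 1.32%. Among 197 T or NK lymphocyte-like cells (median 5284 UMIs) the share was 2.54% for Ednra, 1.52% for Ednrb and 14.2% for Ece1, and no cell had a UMI of a ligand gene, which allows up to 1.52%.

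**Figure D1:**
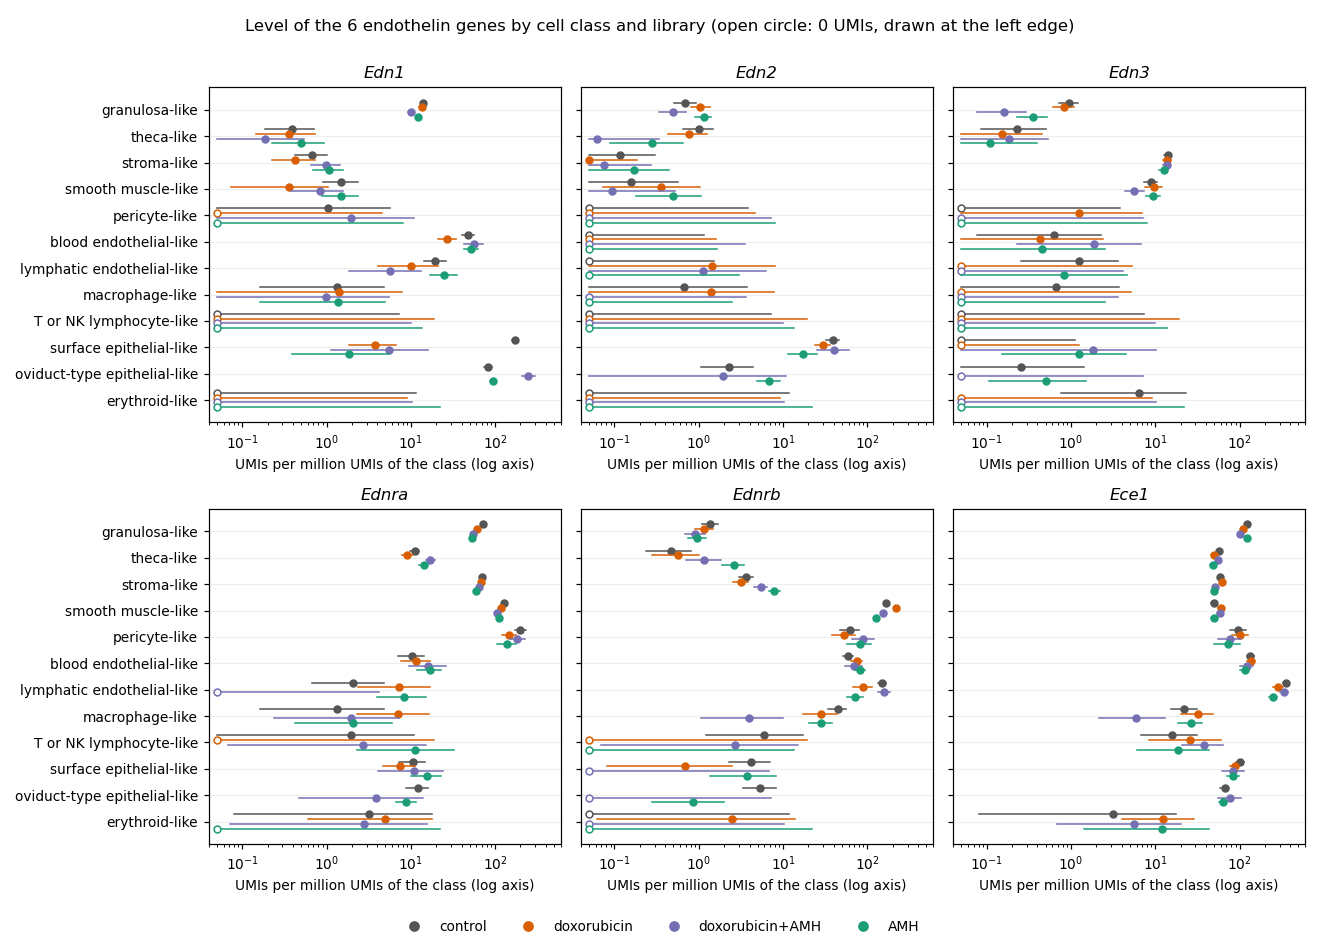
Level of each endothelin gene as CPM (UMIs of the gene per 1000000 UMIs of the class, log axis) in each cell class with at least 20 cells in the library; points are libraries (grey control, orange doxorubicin, purple doxorubicin+AMH, green AMH), lines are exact 95% Poisson intervals and open circles are 0 UMIs. Edn2 stands highest in surface epithelial-like cells (17.5 to 40.3), Ednra in pericyte-like cells and Ednrb in smooth muscle-like and lymphatic endothelial-like cells.

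The 6 genes were divided among cell classes. Of the ligand genes, Edn2 had its highest level in the surface epithelial-like cells, Edn3 in stroma-like cells and Edn1 in oviduct-type and blood endothelial-like cells, apart from a few surface epithelial-like cells of the control library. Ednra was highest in pericyte-like and Ece1 in lymphatic endothelial-like cells, and Ednrb in smooth muscle-like and lymphatic endothelial-like cells, whose ranges over libraries overlapped. Between treatments, Ednrb of smooth muscle-like cells was lower in both libraries with AMH than in both without. Ednra of granulosa-like cells was highest in the control library, and Edn1 of blood endothelial-like cells was lowest in the doxorubicin library.

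Edn1 encodes endothelin 1, the classical endothelial vasoconstrictor. Its levels were highest in oviduct-type epithelial-like, surface epithelial-like (through the control library) and blood endothelial-like cells. The wide range of surface epithelial-like cells overlapped those of the other two, which did not overlap each other. The range of blood endothelial-like cells did not overlap that of lymphatic endothelial-like cells, which came next. Granulosa-like cells, at a lower level but far more numerous, held 44.1, 87.8, 72.1 and 54.5% of its UMIs. In blood endothelial-like cells Edn1 stood at 47.6, 27.0, 56.0 and 51.5 CPM, from 152, 63, 59 and 114 UMIs in 37 of 165, 20 of 114, 15 of 59 and 30 of 83 cells. The doxorubicin library was the lowest of the 4, and the others overlapped in their intervals. The ratio of doxorubicin to control was 0.57 (0.42 to 0.77), that of AMH to control 1.08 (0.84 to 1.39), that of doxorubicin+AMH to AMH 1.09 (0.78 to 1.5), and that of doxorubicin+AMH to doxorubicin 2.07 (1.43 to 3.00). With the mean of each cell's own CPM, AMH to control was 1.64 and doxorubicin+AMH to AMH 0.48, and the latter was 0.62 with classes gated on markers. These comparisons share libraries and are not independent of each other.

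The share of blood endothelial-like cells with an Edn1 UMI was 22.4% (16.3 to 29.6), 17.5% (11.1 to 25.8), 25.4% (15.0 to 38.4) and 36.1% (25.9 to 47.4). With each cell thinned to 2000 UMIs it was 9.49, 2.68, 11.3 and 11.5%, leaving out 7, 2, 6 and 5 shallower cells. The doxorubicin library was lowest by both measures. Its unthinned interval overlapped those of the control and doxorubicin+AMH libraries. Median depth was 9982, 12266, 10824 and 15842 UMIs per cell. Few cells carried much of the signal: the 5 cells richest in Edn1 held 37.5, 66.7, 64.4 and 48.2% of the UMIs. Without them the levels were 31.1, 9.94, 22.2 and 27.5 CPM, and the doxorubicin library stayed lowest. Markers of other cells also differed between these blood endothelial-like populations. Summed pericyte markers (7 genes) stood at 388, 278, 652 and 727 CPM, stroma markers (7 genes) at 587, 299, 680.2 and 871 CPM and smooth muscle markers (7 genes) at 197, 142, 436 and 204 CPM, all lowest in the doxorubicin library. None of these markers was at 0 UMIs there except Actg2 in the AMH library. The class's own 8 markers summed to 5773, 5720.5, 5103 and 4951 CPM and erythroid markers to 15.0, 16.3, 5698 and 377 CPM. The 14 genes of tissue dissociation stress, which mark handling of live cells, summed to 7494, 6881, 8457 and 8458 CPM, none at 0 UMIs and lowest in the doxorubicin library. The part of the stroma and erythroid markers and of the stress genes in the Edn1 difference was not tested. In cells without a UMI of the pericyte markers, Acta2, Tagln or Myh11, the ratio of doxorubicin to control was 0.29 (0.11 to 0.69).

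Lists of endothelial subtypes gave the same class another description. Venous genes summed to 348, 350.0, 550.2 and 453 CPM and capillary genes to 727, 674, 521 and 508 CPM, while arterial genes summed to 513, 419, 478 and 345 CPM. Nos3, the endothelial nitric oxide synthase whose product opposes endothelin, stood at 121, 107, 96.8 and 92.6 CPM, with the control highest.

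In granulosa-like cells, the somatic cells that surround the oocyte, Edn1 stood at 14.0, 13.4, 10.0 and 12.3 CPM (909, 780, 624 and 913 UMIs). The doxorubicin+AMH library was lowest, with a ratio of 0.75 (0.67 to 0.83) to doxorubicin and 0.82 (0.74 to 0.91) to AMH alone. With the cells of high doublet score left in and all cells clustered anew, these ratios were 1.00 and 1.00. What moved the ratios was not tested. The ratio of doxorubicin to control was 0.95 (0.87 to 1.05) and that of AMH to control 0.88 (0.80 to 0.96). The share of granulosa-like cells with an Edn1 UMI was 14.0, 12.4, 12.7 and 12.2%, and 2.11, 2.16, 1.96 and 1.96% at 2000 UMIs, with overlapping intervals. Median depth in this class was 23126, 25581, 21938 and 17782 UMIs per cell.

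Granulosa-like clusters differed widely among themselves. The cluster led by Kcnq5, Bmpr1b and Mlf1 had the highest Edn1, 32.3, 29.1, 16.8 and 22.7 CPM, with both AMH-treated libraries under both libraries without AMH. Its ratio of AMH to control was 0.70 (0.62 to 0.80) and that of doxorubicin+AMH to doxorubicin 0.58 (0.48 to 0.68). The cluster led by Cntn4, Slc18a2 and Cdh12, whose leading genes include Amh itself, had 1.53, 0.848, 8.28 and 9.53 CPM from 17, 8, 28 and 50 UMIs. There the libraries with AMH were the higher ones: AMH against control was 6.24 (3.54 to 11.53) and doxorubicin+AMH against doxorubicin 9.77 (4.34 to 24.81). Clusters led by Fst and Fshr (11.0, 15.7, 7.97 and 10.4 CPM), by Inhba and Fst (9.61, 8.61, 9.91 and 7.35 CPM) and by Inhba and Hsd17b1 (7.51, 5.58, 5.54 and 4.68 CPM) had lower Edn1 than the Kcnq5-led cluster in each library. In the cluster led by Inhba and Fst doxorubicin+AMH to AMH was 1.35 (1.10 to 1.66). The Kcnq5-led cluster made up 382 of 2176 granulosa-like cells of the doxorubicin+AMH library. In the doxorubicin and AMH libraries it made up 448 of 1727 and 692 of 2784. The part of these shares in the class ratios was not tested. The Cntn4-led cluster held 313, 242, 129 and 217 cells and the Kcnq5-led cluster 559, 448, 382 and 692 cells. Unnamed clusters with 185 and 80 cells of the doxorubicin library shared leading genes of the Cntn4-led one and were not part of these values.

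**Figure D2:**
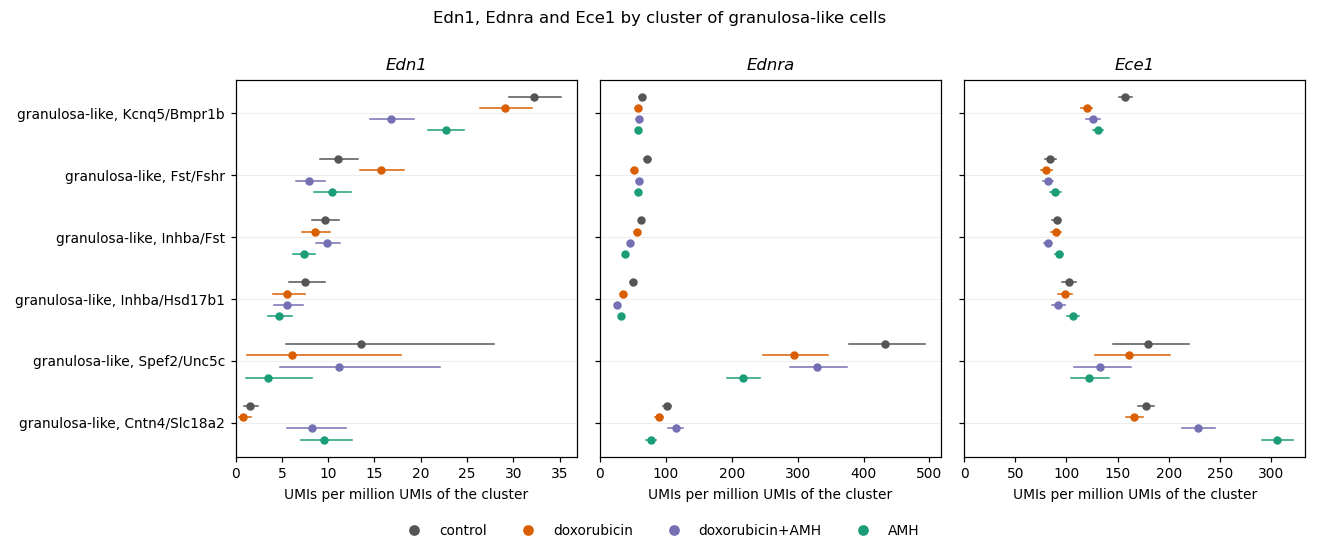
Edn1, Ednra and Ece1 in the 6 granulosa-like clusters, as UMIs per 1000000 UMIs of the cluster; points are the 4 libraries (grey control, orange doxorubicin, purple doxorubicin+AMH, green AMH) and lines exact 95% Poisson intervals. In the Cntn4-led cluster at the bottom, Edn1 and Ece1 are higher in both libraries with AMH than in both without, and in the Kcnq5-led cluster at the top Edn1 is lower in both.

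Elsewhere Edn1 was found in oviduct-type epithelial-like cells at 82.3, 247 and 93.7 CPM in the control, doxorubicin+AMH and AMH libraries. Lymphatic endothelial-like cells had 19.6, 10.2, 5.65 and 24.7 CPM, from 47, 7, 5 and 30 UMIs. In surface epithelial-like cells the control library stood at 173 CPM against 3.73, 5.50 and 1.87 CPM in the others. That value rested on few cells: 314 of the 575 UMIs came from 1 cell, and without the 5 richest cells the level was 8.64 CPM. Macrophage-like, smooth muscle-like, stroma-like, pericyte-like and theca-like cells stayed at or under 1.93 CPM in each library.

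Edn2 encodes endothelin 2. Its level was highest in surface epithelial-like cells, the mesothelial cover of the ovary, in each library, and its range over libraries did not overlap that of oviduct-type cells, the next class. It stood there at 38.7, 29.5, 40.3 and 17.5 CPM, from 129, 87, 22 and 28 UMIs in 36 of 106, 18 of 88, 9 of 36 and 15 of 64 cells. The AMH library was lowest, and the class held 36 cells in the doxorubicin+AMH library. The share of these cells with an Edn2 UMI was 34.0% (25.0 to 43.8), 20.5% (12.6 to 30.4), 25% (12.1 to 42.2) and 23.4% (13.8 to 35.7), and 6.86, 3.57, 0 and 4.92% at 2000 UMIs, leaving out 4, 4, 4 and 3 cells. The 0 of 32 cells in the doxorubicin+AMH library allow up to 9.38%. The level was higher in the cluster led by Lgals7 and Upk3b (64, 49, 35 and 29 cells), at 51.0, 46.4, 42.5 and 31.5 CPM, with the control highest. The second cluster of the class, led by C3 and Slpi (42, 39, 1 and 35 cells), had 5.56, 1.79 and 4.75 CPM in the control, doxorubicin and AMH libraries. The libraries thus held these clusters in unlike shares. Oviduct-type epithelial-like cells came next, at 2.32, 1.93 and 6.83 CPM in the control, doxorubicin+AMH and AMH libraries.

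In granulosa-like cells Edn2 was near the floor, at 0.695, 1.05, 0.499 and 1.15 CPM (45, 61, 31 and 85 UMIs among 2064, 1727, 2176 and 2784 cells). The doxorubicin+AMH library was lowest, at 0.48 (0.30 to 0.75) of the doxorubicin and 0.44 (0.28 to 0.66) of the AMH library. These ratios were 0.22 and 0.48 with the cells of high doublet score left in, and 0.91 and 0.89 with 5 CPM added to each level. AMH against control was 1.65 (1.13 to 2.42). With the cells of high doublet score left in and all cells clustered anew it was 0.68, and what turned it was not tested. Within the Kcnq5-led cluster AMH against control was 3.38 (1.88 to 6.51), while it was 0.53 (0.20 to 1.31) in the cluster led by Inhba and Fst and 0.49 (0.089 to 1.78) in the Cntn4-led one. The other clusters had at most 5 UMIs in either library. Of the 9 genes fixed as the ovulatory response of granulosa cells, 1 reached 20 CPM on average: Adamts1, a matrix protease of the rupturing follicle, at 68.0, 66.5, 73.0 and 80.7 CPM. The lowest was Ereg, an EGF-like factor of that response, at 0.216, 0.258, 0.129 and 0.0674 CPM, and Pgr, the progesterone receptor that is known to be required for rupture, stood at 2.13, 1.37, 1.08 and 1.85 CPM. Highest and lowest in a list only choose the genes named, since counts of different genes also depend on the transcript. Theca-like cells had 26, 15, 1 and 5 Edn2 UMIs. Blood endothelial-like, pericyte-like, erythroid-like and T or NK lymphocyte-like cells had none, which for blood endothelial-like cells allows up to 0.713% of 421 cells with a UMI and sets no limit on cells that express the gene.

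Edn3 encodes endothelin 3. Stroma-like cells, the fibroblast-like cells between follicles, had its highest level, and their range did not overlap that of smooth muscle-like cells, the next class. Stroma-like cells held 71.7, 74.5, 82.3 and 65.5% of its UMIs and smooth muscle-like cells 16.7, 14.3, 14.0 and 25.7%. In stroma-like cells it stood at 14.1, 13.8, 13.6 and 12.6 CPM (482, 421, 358 and 293 UMIs), and all 4 intervals overlapped. The ratios were 0.98 (0.86 to 1.12) for doxorubicin to control, 0.89 (0.77 to 1.04) for AMH to control, 1.08 (0.92 to 1.27) for doxorubicin+AMH to AMH and 0.99 (0.85 to 1.14) for doxorubicin+AMH to doxorubicin. An Edn3 UMI was found in 11.6% (10.5 to 12.8), 12.9% (11.5 to 14.4), 12.5% (11.1 to 14.0) and 10.6% (9.31 to 11.9) of stroma-like cells, and in 2.87, 3.48, 3.20 and 3.01% at 2000 UMIs, leaving out 51, 29, 45 and 29 cells. Within the stroma the level was uneven. The cluster led by Pdgfra, Frem1 and Kcnk2 had 44.1, 56.4, 39.8 and 34.9 CPM, and that led by Mfap4 and Sfrp1 had 29.7, 34.2, 24.5 and 20.2 CPM. In both, the AMH library was lowest and the doxorubicin library highest. In the Pdgfra-led cluster doxorubicin to control was 1.28 (1.06 to 1.54), AMH to control 0.79 (0.65 to 0.97) and doxorubicin+AMH to doxorubicin 0.71 (0.59 to 0.85). A further cluster, led by Dpt, Col1a1 and Clec3b, had 12.1, 2.79, 9.58 and 12.2 CPM, with the doxorubicin library lowest (44, 9, 14 and 36 UMIs).

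In smooth muscle-like cells Edn3 stood at 8.83, 9.62, 5.65 and 9.43 CPM (112, 81, 61 and 115 UMIs). The doxorubicin+AMH library was lowest, at 0.59 (0.41 to 0.83) of the doxorubicin library and 0.60 (0.43 to 0.82) of the AMH library, and the other 3 overlapped. In granulosa-like cells Edn3 was near the floor, at 0.942, 0.825, 0.161 and 0.350 CPM, and lower with AMH in both pairs: AMH to control was 0.37 (0.23 to 0.60) and doxorubicin+AMH to doxorubicin 0.20 (0.088 to 0.39), from 61, 48, 10 and 26 UMIs. With 5 CPM added to each level these ratios were 0.90 and 0.89. The Cntn4-led cluster held 42, 35, 5 and 6 of them (3.78, 3.71, 1.48 and 1.14 CPM), most of those in the control and doxorubicin libraries.

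**Figure D3:**
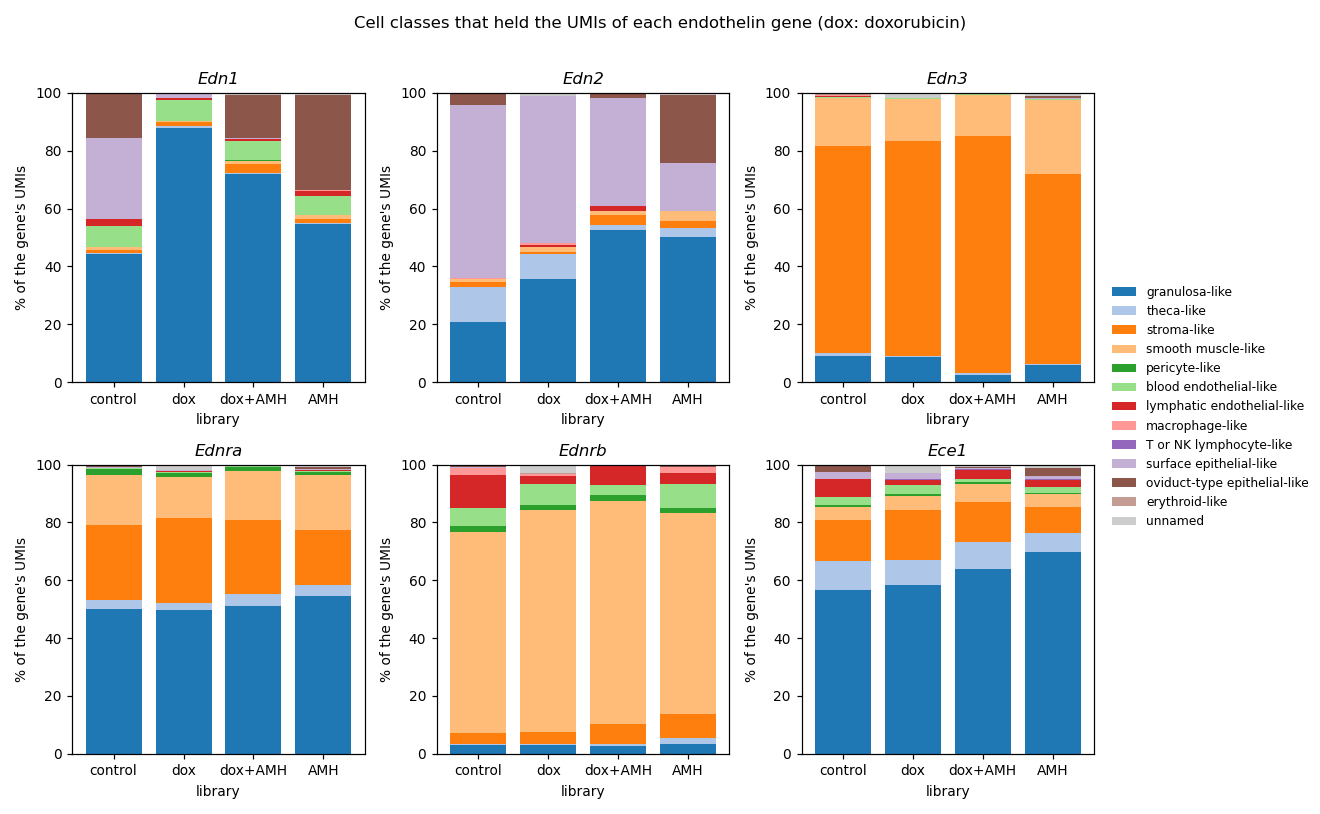
Share of each endothelin gene's UMIs (%) that came from each cell class, 1 stacked bar per library (dox is doxorubicin); grey is the unnamed clusters. Granulosa-like cells held 56.5 to 69.7% of Ece1 UMIs and smooth muscle-like cells 69.4 to 77.3% of Ednrb UMIs.

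Ece1 encodes the protease that makes active endothelins. Lymphatic endothelial-like cells had the highest level, 353, 289, 336 and 248 CPM, with a range that did not overlap the next class. Blood endothelial-like cells had 134, 137, 122 and 116 CPM, overlapping granulosa-like cells at 124, 109.6, 100.2 and 122 CPM. Surface epithelial-like (102, 87.2, 84.3 and 83.6 CPM), pericyte-like (96.6, 102, 77.3 and 72.2 CPM) and oviduct-type cells followed, each overlapping its neighbour. Stroma-like (58.2, 62.5, 51.1 and 50.2 CPM), smooth muscle-like (49.7, 60.7, 58.3 and 49.5 CPM) and theca-like cells (56.3, 49.4, 55.6 and 48.0 CPM) formed a lower group that overlapped among themselves. Macrophage-like, T or NK lymphocyte-like and erythroid-like cells were lowest. Granulosa-like cells held 56.5, 58.3, 63.9 and 69.7% of all Ece1 UMIs.

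Across treatments the ratios of Ece1 in granulosa-like, stroma-like, smooth muscle-like and theca-like cells ran from 0.82 to 1.22. In granulosa-like cells doxorubicin to control was 0.88 (0.86 to 0.91) and doxorubicin+AMH to AMH 0.82 (0.79 to 0.85). AMH to control was 0.99 (0.96 to 1.02) and doxorubicin+AMH to doxorubicin 0.91 (0.88 to 0.95). In smooth muscle-like cells the doxorubicin pairs stood the other way, at 1.22 (1.08 to 1.37) and 1.18 (1.05 to 1.32). The second of these was 0.96 with doublets left in. That class was made of clusters in unlike shares, as described with Ednrb. Within its largest cluster, led by Acta2, the same ratios were 1.03 (0.91 to 1.16) and 1.03 (0.92 to 1.16). The Cntn4-led granulosa-like cluster had 178, 166, 229 and 306 CPM, higher in both libraries with AMH, with a ratio of AMH to control of 1.72 (1.61 to 1.84) and of doxorubicin+AMH to doxorubicin of 1.38 (1.26 to 1.5). The Kcnq5-led cluster had 158, 119.7, 126 and 131 CPM, with the control highest and doxorubicin to control at 0.76 (0.71 to 0.81). That ratio was 0.95 (0.87 to 1.05) in the cluster led by Fst and Fshr, 1.00 (0.93 to 1.07) in that led by Inhba and Fst, 0.96 (0.87 to 1.06) in that led by Inhba and Hsd17b1 and 0.93 (0.87 to 1.00) in the Cntn4-led one. Doxorubicin+AMH to AMH was 0.96, 0.91, 0.88, 0.86 and 0.75 in the same order. In the Pdgfra-led stroma-like cluster AMH to control was 0.67 (0.59 to 0.76) and doxorubicin+AMH to doxorubicin 0.56 (0.50 to 0.64).

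Ednra encodes the endothelin A receptor. Per UMI of the class it was highest in pericyte-like cells, the contractile cells that wrap small vessels, at 199, 146, 184 and 138 CPM. Smooth muscle-like cells followed at 129, 117, 104 and 111 CPM, with a range that did not overlap. Stroma-like (70.6, 67.5, 64.5 and 59.0 CPM) and granulosa-like cells (72.5, 60.2, 54.8 and 52.6 CPM) came next and overlapped each other. All other classes stood at 17.0 CPM or less where a library held at least 20 of their cells. An Ednra UMI was found in 78 of 103, 53 of 73, 38 of 56 and 37 of 64 pericyte-like cells, 75.7% (66.3 to 83.6), 72.6% (60.9 to 82.4), 67.9% (54.0 to 79.7) and 57.8% (44.8 to 70.1), and in 34.3, 37.0, 21.8 and 22.2% at 2000 UMIs, leaving out 1, 0, 1 and 1 cells. Their median depth was 7477, 10427, 7556 and 6718 UMIs. In granulosa-like cells the share was 62.6% (60.5 to 64.7), 60.6% (58.3 to 62.9), 53.1% (51.0 to 55.2) and 49.6% (47.7 to 51.5), and 13.4, 10.2, 11.2 and 12% at 2000 UMIs, leaving out 27, 17, 37 and 74 cells. Both lie above the share of erythroid-like cells, also at equal depth. By number of UMIs, granulosa-like cells were the main holders of Ednra, with 50.1, 49.8, 51.2 and 54.7% of its UMIs.

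In granulosa-like cells Ednra was highest in the control library and lower in each treated one. Doxorubicin to control was 0.83 (0.79 to 0.87) and AMH to control 0.73 (0.69 to 0.76). Doxorubicin+AMH to doxorubicin was 0.91 (0.87 to 0.96) and doxorubicin+AMH to AMH 1.04 (1.00 to 1.09). The first of these last 2 turns to 1.09 when each cell's own CPM is averaged. Of the granulosa-like clusters, that led by Spef2 and Unc5c, of low depth (median 2943 UMIs), had the highest Ednra, 433, 294, 329 and 217 CPM, with the control highest and AMH lowest. The Cntn4-led cluster had 102, 89.3, 115 and 77.2 CPM. The clusters led by Inhba and Fst (62.3, 56.1, 45.3 and 38.7 CPM) and by Inhba and Hsd17b1 (50.1, 34.6, 26.1 and 31.4 CPM) had the control highest, as did the Kcnq5-led cluster (63.6, 57.5, 59.3 and 58.3 CPM). The class ratio of doxorubicin+AMH to doxorubicin was under 1, but most clusters stood the other way. Doxorubicin+AMH was above doxorubicin in the Spef2-, Cntn4- and Kcnq5-led clusters and in that led by Fst and Fshr. It was under it in both Inhba-led clusters.

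Stroma-like Ednra was uneven too. The Pdgfra-led cluster was highest at 145, 129.7, 100.4 and 87.9 CPM, with AMH to control at 0.61 (0.54 to 0.68) and doxorubicin+AMH to doxorubicin at 0.77 (0.69 to 0.87). The Mfap4-led cluster had 88.6, 106, 77.6 and 60.6 CPM and the Dpt-led cluster 37.0, 24.5, 29.4 and 28.4 CPM. Over the whole class AMH to control was 0.84 (0.78 to 0.89). In theca-like cells, the steroid-making cells outside the follicle, Ednra was low, at 11.2, 9.05, 17.0 and 14.1 CPM, and higher with AMH: 1.27 (1.07 to 1.5) for AMH to control and 1.88 (1.55 to 2.28) for doxorubicin+AMH to doxorubicin. The class was made of unlike clusters in these libraries. The Prss35-led cluster held 25, 22, 569 and 752 theca-like cells and the Mgarp-containing cluster led by Cyp17a1 held 655, 406, 40 and 36, and the 7 theca markers summed to 15255, 14585, 5635 and 4739 CPM. Within the latter cluster the ratios were 1.00 (0.47 to 1.88) and 1.28 (0.60 to 2.42), and within the cluster led by Cyp17a1 and Enpep 1.02 (0.68 to 1.53) and 2.47 (1.41 to 4.53).

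Ednrb encodes the endothelin B receptor. Smooth muscle-like cells held 69.4, 76.9, 77.3 and 69.8% of its UMIs. It stood there at 168, 216, 153 and 127 CPM, from 2136, 1822, 1653 and 1547 UMIs in 469 of 955, 327 of 555, 411 of 762 and 407 of 888 cells. Doxorubicin was highest and AMH lowest. The ratio of AMH to control was 0.75 (0.71 to 0.80) and that of doxorubicin+AMH to doxorubicin 0.71 (0.66 to 0.76). That of doxorubicin to control was 1.28 (1.21 to 1.37) and that of doxorubicin+AMH to AMH 1.21 (1.13 to 1.30). The share of cells with an Ednrb UMI was 49.1% (45.9 to 52.3), 58.9% (54.7 to 63), 53.9% (50.3 to 57.5) and 45.8% (42.5 to 49.2), and 23.1, 29.3, 21.0 and 19.7% at 2000 UMIs, leaving out 21, 13, 11 and 20 cells. Median depth was 10240, 11734, 9918 and 9307 UMIs.

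The smooth muscle-like class had a pair of clusters with unlike receptor levels. The larger, led by Acta2, Myh11 and Actg2 (753, 535, 710 and 706 cells), had Ednrb at 214, 222, 160.0 and 157 CPM and Ednra at 106, 120.3, 107 and 94.1 CPM. The smaller, led by Des, Actg2 and Myh11 (202, 20, 52 and 182 cells), had Ednrb at 13.4, 54.1, 31.6 and 11.9 CPM, lower than the larger one in each library, and Ednra at 207, 30.4, 64.9 and 177 CPM, where the doxorubicin values rest on 16 and 9 UMIs. The Des-led cluster was small in the doxorubicin and doxorubicin+AMH libraries. Within the Acta2-led cluster doxorubicin to control for Ednrb was 1.04 (0.97 to 1.10), against 1.28 for the class. The AMH ratios held there: 0.73 (0.68 to 0.78) for AMH to control and 0.72 (0.67 to 0.77) for doxorubicin+AMH to doxorubicin. For Ednra in that cluster, doxorubicin to control was 1.14 (1.04 to 1.24), against 0.91 (0.84 to 0.98) for the class.

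At 2000 UMIs per cell, 140 of 2644 cells of the Acta2-led cluster had UMIs of both receptors (5.30%). Ednra was found in 20.3% of its Ednrb-bearing cells and 17.7% of the others. In the Des-led cluster 0 of 451 cells had both, with Ednra in 25.3% and Ednrb in 2.88%. In pericyte-like cells 8 of 293 had both, with Ednra in 30.0% and Ednrb in 8.53%.

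**Figure D4:**
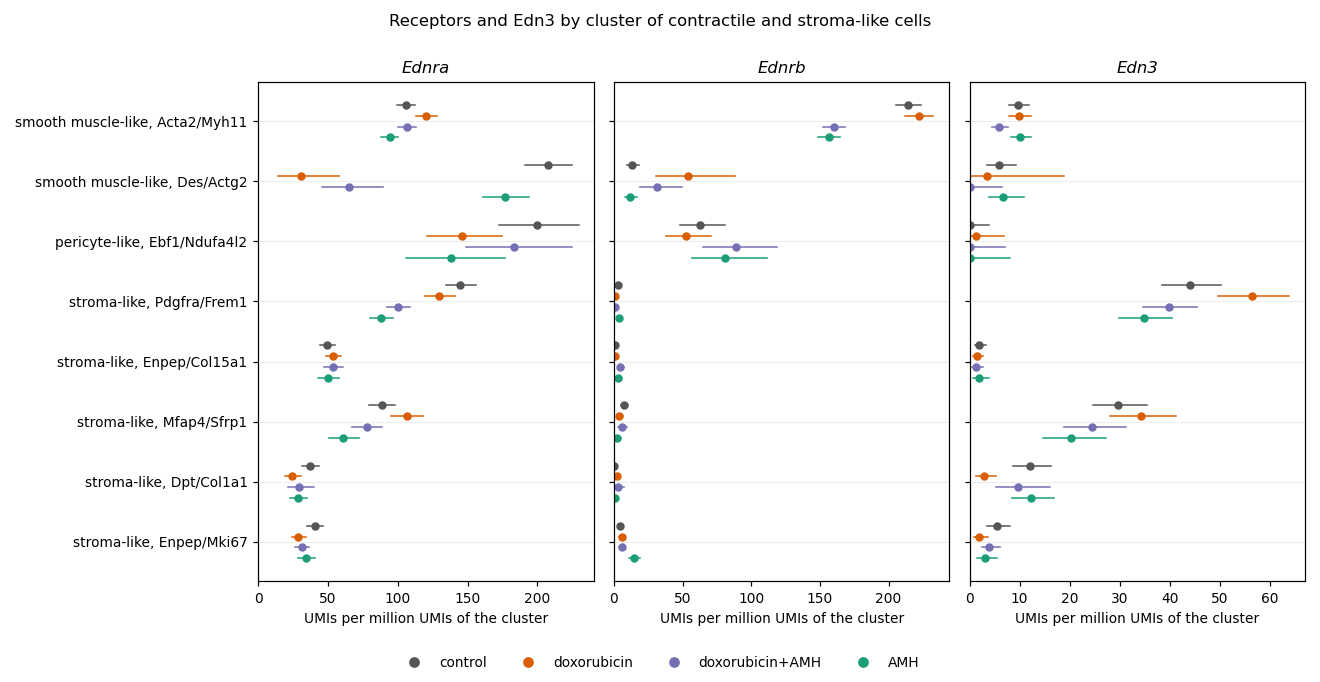
Ednra, Ednrb and Edn3 in smooth muscle-like, pericyte-like and stroma-like clusters (the largest stroma-like cluster is not drawn), as UMIs per 1000000 UMIs of the cluster; points are the 4 libraries (grey control, orange doxorubicin, purple doxorubicin+AMH, green AMH) and lines exact 95% Poisson intervals. Ednrb is highest in the Acta2-led cluster, where both libraries with AMH (160.0 and 157) lie under both without (214 and 222); Edn3 is highest in the Pdgfra-led stroma-like cluster.

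Lymphatic endothelial-like cells also had high Ednrb, 149, 88.5, 159 and 71.7 CPM, overlapping smooth muscle-like cells in range, with the doxorubicin and AMH libraries lower than the other pair. Blood endothelial-like cells had 59.2, 75.1, 69.2 and 82.2 CPM and pericyte-like cells 62.7, 52.4, 88.9 and 81.0 CPM, and these overlapped. In blood endothelial-like cells doxorubicin to control was 1.27 (1.03 to 1.57) and AMH to control 1.39 (1.13 to 1.71). Both turned without the 5 richest cells of each library, to 0.93 and 0.87. Macrophage-like cells had 44.3, 28.0, 3.95 and 28.5 CPM, from 66, 20, 4 and 42 UMIs in 15, 7, 3 and 12 cells, and the doxorubicin+AMH library was lowest.

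Stroma-like cells had little Ednrb, 3.65, 3.15, 5.44 and 7.86 CPM, but more with AMH: AMH to control was 2.15 (1.71 to 2.72) and doxorubicin+AMH to doxorubicin 1.73 (1.33 to 2.26). AMH to control was 1.16 with doublets left in and 1.23 with the mean of each cell's own CPM. The 7 smooth muscle markers, none at 0 UMIs, were also higher in both libraries with AMH, with sums of 680.2, 623, 1071 and 961 CPM. Clusters differed: AMH to control was 0.32 (0.096 to 0.82) in the Mfap4-led, 1.23 (0.61 to 2.55) in the Pdgfra-led and 3.14 (1.88 to 5.44) in the cluster led by Enpep and Mki67. In the same order of clusters, doxorubicin+AMH to doxorubicin was 1.48 (0.65 to 3.46), 1.30 (0.25 to 8.35) and 1.03 (0.60 to 1.78). In stroma-like cells without a UMI of Myh11, Cnn1, Actg2, Lmod1 or Des the ratios were 1.10 (0.65 to 1.85) and 1.32 (0.72 to 2.44). Theca-like cells had 12, 11, 19 and 47 Ednrb UMIs (0.463, 0.562, 1.17 and 2.60 CPM), with AMH to control at 5.60 (2.93 to 11.60). Of the 47 in the AMH library, 41 lay in the Prss35-led cluster, which had none in its 25 control cells. Within the cluster led by Cyp17a1 and Enpep the ratio was 1.44 (0.24 to 9.85) and within that led by Cyp17a1 and Mgarp 5.26 (0.55 to 25.39), from 4 against 3 and 2 against 9 UMIs. Over the class it was 1.59 with the cells of high doublet score left in and 1.39 with 5 CPM added to each level. Smooth muscle markers in theca-like cells summed to 58.3, 40.7, 92.1 and 70.3 CPM. In granulosa-like cells Ednrb stood at 1.38, 1.17, 0.902 and 0.957 CPM, with 3.34, 3.30, 1.93 and 2.01% of cells bearing a UMI, and 0.0982, 0.292, 0.0468 and 0.295% at 2000 UMIs, under the 1.63% that 0 of 184 erythroid-like cells allow.

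**Figure D5:**
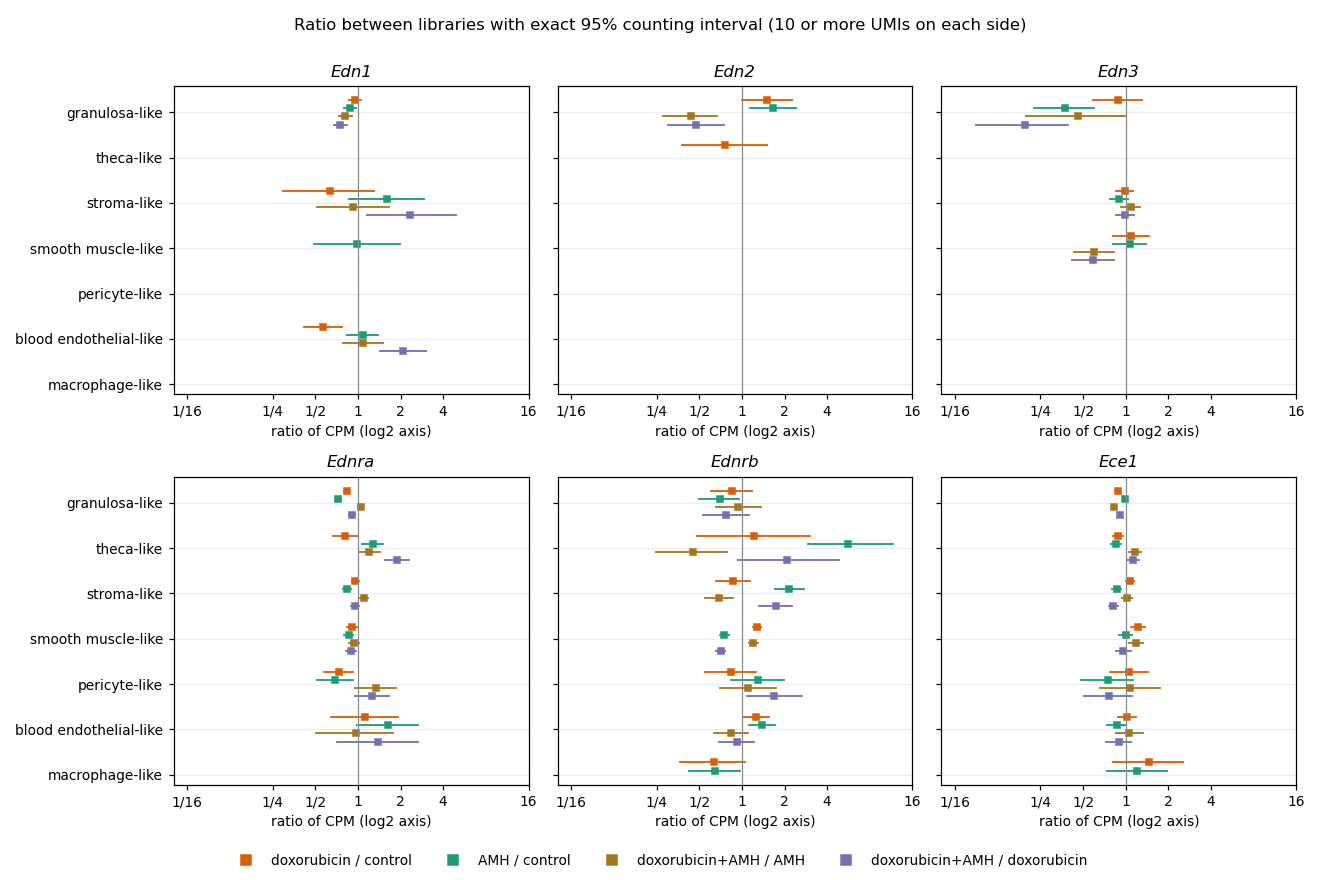
Ratio of CPM between libraries (log2 axis) for each endothelin gene and class with at least 50 cells in each library and 10 UMIs on each side; squares are ratios, lines exact 95% intervals for counting error, and colours the 4 comparisons. Ednrb in smooth muscle-like cells lies under 1 for AMH to control (0.75) and doxorubicin+AMH to doxorubicin (0.71), and Edn1 in blood endothelial-like cells lies under 1 for doxorubicin to control (0.57).

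Ratios past 2-fold were counted for the endothelin genes and for all genes of each class. A gene was counted where its mean over the 4 libraries reached 20 CPM in the class and its ratio was 2 or more or 0.5 or less. Background shares of all genes past that fold are given in the order doxorubicin to control, AMH to control, doxorubicin+AMH to AMH and doxorubicin+AMH to doxorubicin. In granulosa-like cells 0 of 2 endothelin genes (Ednra and Ece1) passed in any comparison, and the shares of 6630 genes were 0.0452%, 0.649%, 0.0905% and 0.754%. In smooth muscle-like cells 0 of 3 passed (Ednra, Ednrb and Ece1), against 0.755%, 0.17%, 0.663% and 0.2% of 6489 genes. In stroma-like cells 0 of 2 passed, against 0.15%, 0.209%, 0.135% and 0.254% of 6687 genes. In theca-like cells 0 of 1 passed, against 0.16%, 6.67%, 0.176% and 6.45% of 6264 genes. In pericyte-like cells 0 of 3 passed, against 2.56%, 5.25%, 6.97% and 5.34% of 6875 genes. In blood endothelial-like cells 1 of 3 passed, Edn1 in doxorubicin+AMH to doxorubicin, against 0.483%, 2.5%, 1.7% and 2.47% of 6834 genes. That ratio was under 2 with classes gated on markers (1.5), with cells of high doublet score left in (1.68) and with 5 CPM added to each level (1.90). In macrophage-like cells Ednrb and Ece1 were both past 2-fold lower in doxorubicin+AMH to AMH and in doxorubicin+AMH to doxorubicin, from 4 and 6 UMIs in the doxorubicin+AMH library, against 3.91%, 1.7%, 2.91% and 5.9% of 6222 genes.

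The genes that carry the endothelin signal inside the cell were described from lists set by pathway, in smooth muscle-like cells first, where Ednrb had most of its UMIs. Medians are given in the same order of comparisons and can be read against 1.00, 0.96, 1.01 and 0.97 over all genes of the class. All 7 G protein genes reached 20 CPM, from Gna12 (mean 45.1 CPM) to Gnas (mean 1122 CPM), none past 2-fold, with medians of 1.00, 1.01, 0.96 and 0.94. Of 10 genes of the calcium and protein kinase C arm 6 reached 20 CPM, none past 2-fold, with medians of 0.94, 0.93, 1.00 and 0.93. Itpr1, the calcium release channel of the endoplasmic reticulum, was highest at 426, 433, 377 and 404 CPM, and its relative Itpr3 was lowest, with a mean of 0.677 CPM. All 6 contraction genes were measured, none past 2-fold. Mylk, the myosin light chain kinase, was highest at 2081, 2004, 1824 and 1800.1 CPM and Ppp1r14a, an inhibitor of myosin phosphatase, lowest at 251, 228, 205 and 203 CPM. The medians of this list were 0.92, 0.85, 1.02 and 0.94.

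Of the 8 desensitisation genes 3 reached 20 CPM, none past 2-fold. Rgs2, which switches off Gq, was highest at 254, 273, 272 and 255 CPM, and Rgs4 lowest with a mean of 0.882 CPM. The medians of this list were 1.11, 0.98, 1.12 and 1.00. Of the 6 nitric oxide and prostacyclin genes, which oppose endothelin, 4 reached 20 CPM, with medians of 0.98, 0.69, 1.06 and 0.76. Gucy1b1, a subunit of the nitric oxide receptor guanylate cyclase, stood at 24.0, 31.3, 15.4 and 14.9 CPM, past 2-fold lower in doxorubicin+AMH to doxorubicin. Its partner subunit Gucy1a1, named here after its values were seen, stood at 82.9, 90.1, 56.0 and 51.2 CPM. Both subunits were lower in both libraries with AMH than in both without. The same held in stroma-like cells (Gucy1a1 at 149, 139, 103 and 102 CPM). In blood endothelial-like cells both subunits were higher in both libraries with AMH (Gucy1a1 at 41.0, 39.5, 72.1 and 70.0 CPM). In smooth muscle-like cells Prkg1, the kinase downstream of the cyclase, was the highest of the list at 1009, 768, 694 and 924 CPM. Ptgir, the prostacyclin receptor, was the lowest with a mean of 0.184 CPM. Of the 8 regulators of endothelin genes 7 reached 20 CPM. Pgr stood at 94.5, 14.6, 16.9 and 127 CPM and was past 2-fold lower in both comparisons of a doxorubicin library with its partner. The Des-led cluster was small in the same libraries, and its part in this was not tested. Fos was the highest of the list, at 2914, 3020.5, 3181 and 2789.7 CPM, and Gata2 the lowest, at 19.4, 4.39, 8.62 and 20.01 CPM. The medians of this list were 1.05, 0.92, 1.08 and 0.92.

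Of the peptide processing and clearance genes none of 5 reached 20 CPM in smooth muscle-like, granulosa-like, stroma-like or blood endothelial-like cells. Mme, the protease neprilysin that degrades endothelins, was the highest of them, at 10.2, 7.84, 4.36 and 6.15 CPM in smooth muscle-like and 9.43, 13.4, 11.2 and 10.0 CPM in stroma-like cells. In theca-like cells Mme stood at 43.6, 48.6, 13.8 and 10.7 CPM, lower in both libraries with AMH, where the theca-like clusters also differed. In granulosa-like cells, which held more Edn1, Ednra and Ece1 UMIs than any other class in each library, no gene of the signalling, counter-regulator, regulator and ovulatory lists passed 2-fold in any comparison. All 7 G protein genes, 6 of 10 calcium genes, 5 of 6 contraction genes, 3 of 8 desensitisation genes, 2 of 6 counter-regulators and 6 of 8 regulators reached 20 CPM there. Their medians were 0.97, 0.96, 0.98 and 0.98 for the G proteins, 1.01, 0.97, 0.89 and 0.88 for the calcium arm, 0.91, 0.89, 0.89 and 0.93 for contraction, 0.95, 0.99, 1.03 and 1.33 for desensitisation, 1.09, 0.78, 1.01 and 0.71 for the counter-regulators and 1.04, 1.00, 1.04 and 1.01 for the regulators. Over all genes of the class they were 0.98, 0.96, 1.00 and 0.97. Rgs2 was the highest desensitisation gene there, at 358, 282, 275 and 268 CPM, and Rgs4 the lowest, with a mean of 0.278 CPM. In stroma-like cells, which held most Edn3 UMIs, no gene of the same lists passed 2-fold, and the medians ran from 0.73 to 1.05, against 0.99, 0.95, 1.02 and 0.98 over all genes of the class. Cald1, an actin-binding brake on contraction, was the highest contraction gene there, at 767, 754, 644 and 617 CPM, and Ppp1r14a the lowest, at 86.0, 106, 80.6 and 80.4 CPM. Of the 14 stress genes the heat shock gene Hspa1b passed 2-fold in granulosa-like cells (17.4, 25.5, 20.8 and 43.0 CPM). In smooth muscle-like cells Hspa1a (161, 208, 156 and 329.5 CPM) and Hspa1b (109, 140.4, 86.0 and 264 CPM) did, both higher in the AMH library than in the control. In blood endothelial-like cells Egr1 (532, 387, 805 and 688 CPM), Hspa1a (50.7, 59.6, 46.5 and 149.9 CPM) and Hspa1b (35.4, 40.3, 18.0 and 103 CPM) did. Both heat shock genes were highest in the AMH library in each of the 7 compared classes. In stroma-like cells Hspa1a stood at 127, 157, 125 and 310 CPM and Hspa1b at 67.9, 91.5, 72.6 and 228 CPM. Theca-like cells had 114, 126, 122 and 341 CPM of Hspa1a and 95.8, 93.1, 84.1 and 267 CPM of Hspa1b. The part of the stress genes in the endothelin values was not tested.

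Genes whose level ran most like each member were read from 47 sums of a class in a library, by Pearson's r of log2(CPM + 5) over 11411 genes. The points share libraries, depth and cell types, so r is a description. Ednrb ran most like Smtn (r = 0.837), Prkg1 (r = 0.808) and Hoxa3 (r = 0.80). Smtn encodes smoothelin of contractile smooth muscle. Ednra ran most like Daam2 (r = 0.946), Pde1a (r = 0.935) and Naalad2 (r = 0.922). Ece1 ran most like Bcr (r = 0.903), Smad5 (r = 0.889) and Gtf2ird1 (r = 0.887). Among the ligands, Edn2 ran most like Msln (r = 0.974), Sp5 (r = 0.965) and Hsd17b2 (r = 0.963). Msln encodes mesothelin of the ovarian surface and was itself one of the markers that named that class. Edn3 ran most like Gabra3 (r = 0.897), Frem1 (r = 0.895) and Lrrc17 (r = 0.882), and Edn1 most like Kcnq1 (r = 0.848), Paqr5 (r = 0.839) and Ccser1 (r = 0.835).

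Summed over whole libraries, Edn1 stood at 13.3, 6.93, 7.11 and 11.7 CPM, Edn2 at 1.40, 1.34, 0.485 and 1.18 CPM and Edn3 at 4.34, 4.41, 3.58 and 3.12 CPM. Ednra stood at 60.5, 54.9, 54.7 and 49.8 CPM, Ednrb at 19.9, 18.5, 17.6 and 15.5 CPM and Ece1 at 91.8, 85.5, 80.1 and 90.9 CPM. The Edn1 value of the control includes the few surface epithelial-like cells rich in it, and the Edn1 values of the control, doxorubicin+AMH and AMH libraries include 15.5, 14.8 and 32.8% from oviduct-type cells. A difference in these sums cannot be told apart from a difference in the share of each class.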

How the data were processed

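The deposited matrices hold whole-number UMI counts per gene and cell, not normalized, which the authors made with Cell Ranger 7.0.0 per the file headers on mm10, the build also named GRCm38, per the submitters' processing notes. Those notes also name R 4.2.0 and Seurat 4.1.0. The gene annotation, and whether intron reads were counted, were not given in the sources used here. A cell was kept if it had 1000 UMIs or more and no more than 20% of them were mitochondrial. Scrublet's own threshold marked 0, 1, 0 and 0 cells, so the highest doublet scores were removed at 0.8% per 1000 cells (663, 405, 480 and 706 cells). Clustering used 2000 variable genes, 30 components, 20 neighbours and Leiden resolution 1 (scanpy 1.11.5, leidenalg 0.10.2, numpy 2.4.6, scipy 1.17.1, python 3.11.15). A cluster took a class name where at least 3 markers, and 60% of those listed for the class, stood 1 log2 unit above the median cluster in at least 10% of cells. Clusters with over 90% of cells from 1 library stayed unnamed. UMIs were summed per class and library. Levels have exact Poisson intervals, shares Clopper-Pearson intervals and ratios exact conditional binomial intervals; no count model was fitted. Limits for 0 counts use 3 counts. Named genes were the highest and lowest of a pathway list in the class described and those past 2-fold there. The 6 genes, the lists and the rules were chosen with earlier results of these data known. The calculation was tested on simulated data. Ligand sequences come from GENCODE vM21 models on GRCm38.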

Additional observations from a re-analysis of the deposited data

Results flagged for a closer look

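For some genes, a treatment's ratios lay on opposite sides of 1 in different cell classes. None of these differences between classes was tested, since each treatment has 1 library. Ednra was higher with AMH in theca-like cells (AMH to control 1.27, doxorubicin+AMH to doxorubicin 1.88) and lower in granulosa-like (0.73 and 0.91) and smooth muscle-like cells (0.86 and 0.89). The granulosa-like 0.91 was 1.09 with the mean of each cell's own CPM. Within the granulosa-like clusters led by Spef2, Cntn4, Kcnq5 and Fst, doxorubicin+AMH also stood above doxorubicin. The theca-like class was made of different clusters with and without AMH. Ednrb was higher with AMH in stroma-like cells (2.15 and 1.73) and lower in smooth muscle-like cells (0.75 and 0.71). In the Mfap4-led stroma-like cluster AMH to control was 0.32 (0.096 to 0.82). Summed smooth muscle markers were also higher in the stroma-like cells of both libraries with AMH. Ece1 was higher with doxorubicin in smooth muscle-like cells (doxorubicin to control 1.22, doxorubicin+AMH to AMH 1.18) and lower in granulosa-like cells (0.88 and 0.82). The smooth muscle-like 1.18 was 0.96 with doublets left in. The smooth muscle-like class was made of clusters in unlike shares, and within its largest cluster the ratios were 1.03 (0.91 to 1.16) and 1.03 (0.92 to 1.16). Doxorubicin to control also differed between granulosa-like clusters, from 0.76 (0.71 to 0.81) in the Kcnq5-led one to 1.00 (0.93 to 1.07) in that led by Inhba and Fst.

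The 5 unnamed clusters, which no comparison used, also held UMIs of these genes above the limit of a 0 count, as CPM over all 4 libraries. The cluster led by B230209E15Rik and Cntn4, of which 185 of 188 cells came from the doxorubicin library, had Ednra at 64.8, Ednrb at 53.0 and Ece1 at 112 CPM. Its leading genes include both Inhba of granulosa cells and Myh11 and Acta2 of smooth muscle. Another, led by Amh and Wfdc10, with 80 of 88 cells from the doxorubicin library, had Ednra at 53.4 and Ece1 at 146 CPM. A further one, led by Hsd17b1 and Hbb-bs, with 125 of 128 cells from the AMH library, had Ednra at 28.8 and Ece1 at 47.1 CPM. That led by Uchl1 and Hbb-bs had Ednra at 16 and Ece1 at 40.5 CPM, and that led by Cd74 and H2-Eb1, genes of antigen presentation, had Ece1 at 125 CPM.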

How the results depend on the processing

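Of 106 ratios with at least 10 UMIs on each side, 8 alternatives gave 848 values, of which 765 stayed within the reported counting interval, 76 moved and 7 reversed. All 106 stayed within it with at least 500 UMIs per cell and with at most 10% mitochondrial UMIs, and 105 with Leiden resolution 0.5. The alternatives of UMIs, mitochondrial share, doublets and resolution clustered and named all cells anew. Where the values moved or reversed, the cause was not tested. With doublets left in, Edn2 in granulosa-like cells stood at 0.68 for AMH to control. Ednra in granulosa-like cells stood at 0.66 for AMH to control and 0.84 for doxorubicin+AMH to doxorubicin. Edn1 in granulosa-like cells stood at 1.00 for doxorubicin+AMH to AMH. Ednrb in smooth muscle-like cells stood at 1.2 for doxorubicin to control, 0.67 for AMH to control and 0.80 for doxorubicin+AMH to doxorubicin. Ece1 in smooth muscle-like cells stood at 0.96 for doxorubicin+AMH to AMH. Ednrb in stroma-like cells stood at 1.16 for AMH to control. With classes gated on markers without clustering, Edn1 in granulosa-like cells stood at 1.00 for AMH to control. Ednrb in smooth muscle-like cells stood at 1.44 for doxorubicin to control. Ednrb in stroma-like cells stood at 1.61 for AMH to control and 1.18 for doxorubicin+AMH to doxorubicin. Ece1 in theca-like cells stood at 0.96 for doxorubicin+AMH to doxorubicin. With the mean of each cell's own CPM, Edn1 in blood endothelial-like cells stood at 0.32 for doxorubicin to control. Edn3 in granulosa-like cells stood at 0.22 for AMH to control and 1.16 for doxorubicin+AMH to AMH. Ednra in granulosa-like cells stood at 0.84 for AMH to control and 1.09 for doxorubicin+AMH to doxorubicin. Ednrb in smooth muscle-like cells stood at 0.76 for doxorubicin+AMH to doxorubicin. Ednrb in stroma-like cells stood at 1.23 for AMH to control. Ednra in theca-like cells stood at 2.30 for doxorubicin+AMH to doxorubicin. With median-of-ratios size factors, Ednra in granulosa-like cells stood at 0.78 for AMH to control and 0.97 for doxorubicin+AMH to doxorubicin. With 5 CPM added to each level, Edn3 in granulosa-like cells stood at 0.90 for AMH to control and 0.89 for doxorubicin+AMH to doxorubicin. Ednrb in stroma-like cells stood at 1.49 for AMH to control and 1.28 for doxorubicin+AMH to doxorubicin. Further alternatives were chosen after seeing the data. Without the 5 richest cells, Edn1 in blood endothelial-like cells stood at 0.32 for doxorubicin to control. Edn3 in granulosa-like cells stood at 0.076 for doxorubicin+AMH to doxorubicin. Ednrb in blood endothelial-like cells stood at 0.93 for doxorubicin to control and 0.87 for AMH to control. In cells without a UMI of Myh11, Cnn1, Actg2, Lmod1 or Des, Ednrb in stroma-like cells stood at 1.10 for AMH to control and 1.32 for doxorubicin+AMH to doxorubicin. In cells without a UMI of the pericyte markers, Acta2, Tagln or Myh11, Edn1 in blood endothelial-like cells stood at 0.29 for doxorubicin to control and 6.27 for doxorubicin+AMH to doxorubicin. Ednrb in blood endothelial-like cells stood at 0.48 for AMH to control. In the largest smooth muscle-like cluster, Ednra in smooth muscle-like cells stood at 1.14 for doxorubicin to control. Ednrb in smooth muscle-like cells stood at 1.04 for doxorubicin to control. In the theca-like cluster led by Cyp17a1 and Enpep, Ednra in theca-like cells stood at 1.02 for AMH to control, 0.89 for doxorubicin+AMH to AMH and 2.47 for doxorubicin+AMH to doxorubicin. Ece1 in theca-like cells stood at 1.12 for AMH to control and 0.94 for doxorubicin+AMH to AMH. In the theca-like cluster led by Cyp17a1 and Mgarp, Ednra in theca-like cells stood at 1.00 for AMH to control and 1.28 for doxorubicin+AMH to doxorubicin. Ece1 in theca-like cells stood at 0.72 for doxorubicin+AMH to AMH and 0.59 for doxorubicin+AMH to doxorubicin. With genes counted from 5 CPM in place of 20, the background shares past 2-fold are given in the order doxorubicin to control, AMH to control, doxorubicin+AMH to AMH and doxorubicin+AMH to doxorubicin. They were 2.79%, 6.47%, 6.73% and 7.77% in blood endothelial-like cells. They were 0.103%, 1.08%, 0.169% and 1.55% in granulosa-like cells. They were 11.7%, 7.0%, 8.97% and 14.0% in macrophage-like cells. They were 10.2%, 14.9%, 17.8% and 15.0% in pericyte-like cells. They were 1.59%, 0.454%, 1.29% and 0.731% in smooth muscle-like cells. Those in stroma-like cells were 0.465%, 0.384%, 0.429% and 0.751%. Theca-like cells had 0.364%, 7.93%, 0.384% and 7.89%. No paired analysis was possible because each treatment has 1 library. Depth limits the ligand values: in granulosa-like cells Edn2 and Edn3 stood near 1 CPM or less, and in blood endothelial-like, pericyte-like and macrophage-like cells each library held few cells, so a difference under the printed intervals was not detectable.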
